A study of Mus musculus with 8 samples.

Results

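Clustered protocadherin genes lie on mouse chromosome 18 in 3 neighbouring groups, the alpha (Pcdha), beta (Pcdhb) and gamma (Pcdhg) clusters. Replication initiation sites (ISs) were taken as members when they lay within 10 kb of a protein-coding gene on chromosome 18 (mm9, GENCODE M1) whose symbol starts with Pcdha, Pcdhb or Pcdhg. The rule found 7 of the 39116 ISs in the table of Rif1KO against WT, with 3 at the alpha cluster, 1 at the beta cluster and 3 at the gamma cluster. In the deeper table of Rif1KO_shMcm6 against Rif1KO_shLacZ it found 24 of 129937 ISs, with 8, 9 and 7 at the alpha, beta and gamma clusters. The rule used position and no read density.

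ISs were mapped by short nascent strand sequencing (SNS-seq), which sequences short, newly made leading strands protected from an exonuclease by their RNA primer, in CH12, a B cell lymphoma line of mouse. The 8 libraries were 2 each of WT, of Rif1KO, which lacks Rif1, and of 2 groups of the knockout that received a lentiviral hairpin, Rif1KO_shLacZ with the LacZ control hairpin and Rif1KO_shMcm6 with the hairpin that depletes Mcm6. RIF1 is a regulator of replication timing and MCM6 a subunit of the replicative helicase, so the tables ask how IS use changes without RIF1, and on helicase depletion in cells that already lack RIF1. All groups were cultured with IL4, CD40 and TGF beta stimulation per the labels. The knockout cells are clonal derivatives of CH12, and both hairpin groups carry the knockout and were selected with puromycin. The 8 libraries hold no RNA, so neither the cell identity nor the loss of Rif1 or Mcm6 could be checked from them. Reads inside ISs numbered 3350255 (WT) and 3724571 (Rif1KO) in the first table and 21071351 (Rif1KO_shLacZ) and 23602750 (Rif1KO_shMcm6) in the second. Each condition has 1 pooled value per IS, so no replicate error exists, no test was made, and the 95% intervals below cover counting error only. Densities are log2 RPM, reads scaled to 1000000, within the ISs of a table, and are compared within a table. A fold change is thus a change in an IS's share of those reads. A rise or fall common to all ISs would not show.

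Clustered protocadherins are cadherin-related adhesion proteins of the cell surface, studied mostly in neurons, where each cell expresses its own combination of them. In the alpha and gamma clusters, a chosen variable first exon with its own promoter is spliced to constant exons shared by the whole cluster, whereas the beta genes are unspliced and each carries its own promoter. The choice of promoter depends on CTCF, cohesin and DNA methylation. GENCODE M1 places nearly all alpha transcripts under the gene name Pcdha11, with Pcdha3 apart, and all gamma transcripts under Pcdhgc5, so the 24 protein-coding genes were 2 alpha, 21 beta and 1 gamma model, with 46 transcription start sites (TSSs). Members are named here A, B or G for their cluster and numbered along the chromosome in the deeper table. An IS of the first table takes the name of the IS it overlaps, and A0 is the member that overlaps none.

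Few clustered protocadherin gene models were overlapped by an IS, and the beta genes held none. None of the 21 Pcdhb genes, 2.457 to 7.131 kb long, was overlapped by an IS in either table. Of all protein-coding genes, 28.5% were overlapped in the first table and 45.8% in the second. Longer genes are overlapped more readily, and of the 3587 genes in the length range of the Pcdhb genes the shares were 10.5% and 24.5%. Only the long models Pcdha11 (257.4 kb) and Pcdhgc5 (167.5 kb) were overlapped, so 2 of 24 genes (8.33%) carried an IS in each table. These 2 models pool nearly all alpha and all gamma transcripts, so this share depends on the annotation.

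**Figure D1:**
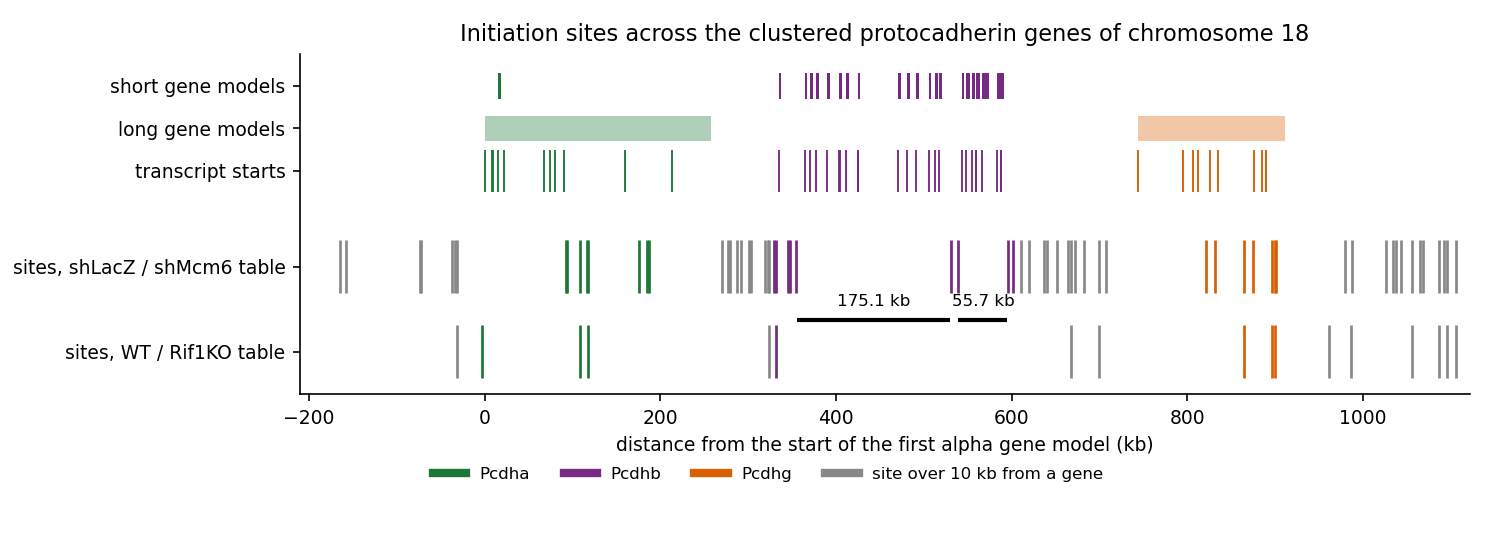
Position of ISs across the 3 clusters and 200 kb on either side, as distance in kb from the start of the Pcdha11 model; each vertical line in the lower tracks is 1 IS of a table, coloured by cluster when it is a member and grey when it lies over 10 kb from a clustered gene, and the black bars mark 2 stretches without an IS in the deeper table. The 175.1 kb bar lies over Pcdhb2 to Pcdhb14 and the 55.7 kb bar over Pcdhb15 to Pcdhb22.

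The beta genes, except Pcdhb1 in the deeper table, lay inside long stretches without an IS. The longest in the deeper table, 175.1 kb (chr18:37445087-37620205), held no IS and contained 13 whole genes, Pcdhb2 to Pcdhb14. It was the 24th longest of the 4520 stretches between neighbouring ISs on chromosome 18, where the median stretch was 7.43 kb. A second stretch of 55.7 kb (chr18:37629278-37684975) contained 7 more genes, from Pcdhb15 to Pcdhb22. Pcdhb1 was outside both stretches, 2292 bp from B2. Between these stretches lay B6 and B7, the only ISs among the beta genes downstream of Pcdhb2. In the first table, 334.6 kb (chr18:37422319-37756893) without an IS contained all 21 Pcdhb genes and ranked 58th of 1223 stretches, whose median was 24.0 kb. The authors had removed ISs with no others near them before deposit, so a stretch without an IS is a stretch without a retained IS, and the part of that filter was not tested.

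TSSs of the alpha and gamma clusters also fell into stretches without ISs. A stretch of 123.0 kb (chr18:37059127-37182114) held 9 alpha TSSs and a stretch of 112.8 kb (chr18:37797417-37910166) held 4 gamma TSSs, which ranked 76th and 94th of the 4520 in the deeper table. In that table the largest distance from a gamma TSS to an IS was 36.6 kb and the smallest was 904 bp, from G4 to the start of a Pcdhgc5 transcript. These distances were 68.4 kb and 6110 bp in the first table.

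Across the 46 TSSs, 0 had an IS within 1 kb in the first table and 1 in the second. These are starts of protein-coding transcripts in GENCODE M1, 11 alpha, 25 beta and 10 gamma. A promoter without such a transcript there is not counted. Of 45968 protein-coding TSSs in the genome, 9.85% and 19.8% had an IS within 1 kb. The median distance from a protocadherin TSS to the nearest IS was 57.4 kb in the first table and 18.9 kb in the second, against 28.4 kb and 9.10 kb for all protein-coding TSSs. The clusters differed in this measure. In the deeper table the median distance was 26.6 kb for alpha, 19.9 kb for beta and 7.31 kb for gamma, so the gamma TSSs lay no farther from an IS than TSSs in general. In the first table the medians were 24.9 kb for alpha, 92.6 kb for beta and 33.4 kb for gamma.

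**Figure D2:**
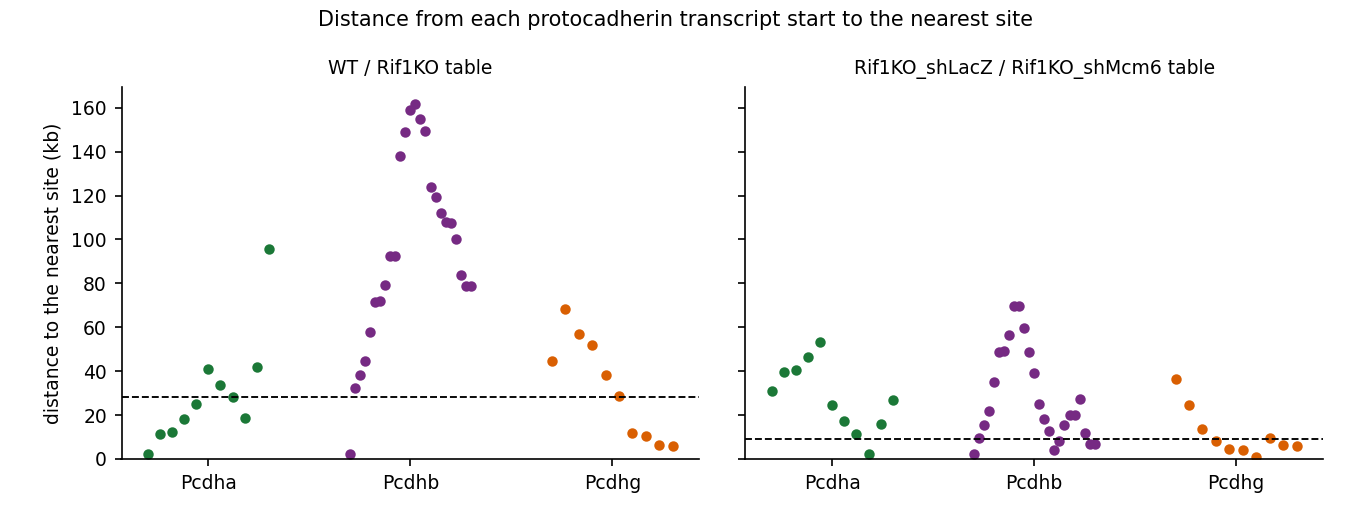
Distance in kb (vertical axis) from each of 46 clustered protocadherin TSSs to the nearest IS in the 2 tables, with points ordered along the chromosome inside each cluster; the dashed line is the median over all protein-coding TSSs, 28.4 kb at left and 9.10 kb at right. Beta TSSs reach 161.6 kb at left and 69.8 kb at right in the middle of the cluster.

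Few members touched coding sequence. In the first table, 5 of 7 members lay in introns of the long models and 2 lay outside clustered genes. Of the 24 members of the deeper table, 14 lay in introns, 9 lay outside genes and 1, A1, overlapped a coding exon of Pcdha11, 2231 bp from the nearest TSS. All 9 beta members of the deeper table lay outside the genes, upstream of Pcdhb1 or in the wider gaps between or after the other genes. No member overlapped a constant exon. The annotated coding exons of the 3 clusters amount to 97.3 kb, of which 0 bases lay inside an IS in the first table and 163 bases (0.168%) in the second. An exon that the gene models lack is counted as intron here. Coding exons of the other genes of chromosome 18 lay inside ISs for 0.629% and 2.61% of their bases, against 0.633% and 3.12% of the whole chromosome.

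Paralogous exons can share sequence, and reads were kept only when they aligned uniquely. The share of 50-base windows that occur once in the genome, at the read length used, was 88.2 to 100% across the Pcdhb genes. Coding exons had 89.0% unique windows in the alpha cluster, 92.8% in the beta cluster and 97.6% in the gamma cluster, against 97.4% in the other genes of chromosome 18. The 175.1 kb stretch without an IS had 86.3% unique windows and the 55.7 kb stretch 96.98%, against 91.3% of chromosome 18. The 334.6 kb stretch of the first table had 82.9%. The part of unique sequence in the position of ISs was not tested.

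In the deeper table, ISs were denser between the clusters than inside them. It held 3.11 ISs per 100 kb in the alpha cluster (8 ISs, 95% Poisson interval 1.34 to 6.12), 1.95 in the beta cluster (5 ISs, 0.633 to 4.55) and 4.18 in the gamma cluster (7 ISs, 1.68 to 8.61). Chromosome 18 held 4.98 and all autosomes 5.15 per 100 kb. The 77.3 kb between the alpha and beta clusters held 12 ISs, or 15.5 per 100 kb (8.02 to 27.1), and the 152.9 kb between beta and gamma held 13, or 8.50 (4.53 to 14.5). The first interval lay above those of all 3 clusters except for the upper end of gamma, and the second overlapped all of them, that of the beta cluster by the least. Added up, the 3 clusters held 20 ISs in 681 kb (2.94 per 100 kb) and the stretches between them 25 in 230 kb (10.9 per 100 kb). In the first table the same sums were 5 ISs (0.734 per 100 kb) and 4 ISs (1.74 per 100 kb), too few to separate the stretches by counting error. The gamma cluster there held 3 ISs (1.79 per 100 kb), above the stretch between beta and gamma (1.31) and chromosome 18 (1.35). These stretches were drawn after the positions of the ISs had been seen.

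Unique windows made up 86.2% of the stretch between alpha and beta and 75.7% of that between beta and gamma, against 87.5% of the beta cluster, 83.1% of the alpha cluster and 96.6% of the gamma cluster. GC content was 39.9% and 41.2% in the stretches and 40.4%, 40.4% and 45.2% in the beta, alpha and gamma clusters.

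**Figure D3:**
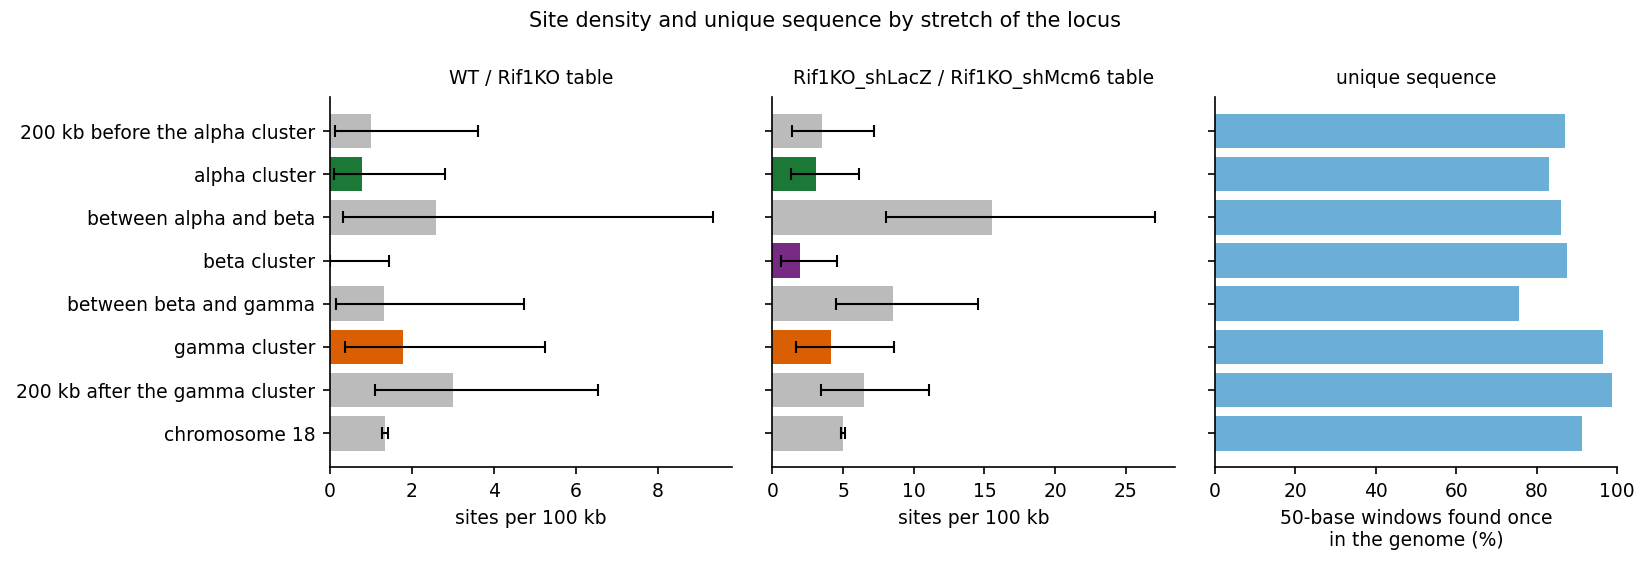
ISs per 100 kb in each stretch of the locus for the 2 tables (left and middle, bars with 95% Poisson intervals of counting error) and the percentage of 50-base windows found once in the genome (right). In the deeper table the stretch between alpha and beta reaches 15.5 ISs per 100 kb, against 1.95 in the beta cluster and 4.98 on chromosome 18.

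Other gene families set the range for such counts. Of 40 Hox genes, developmental regulators also arranged in clusters, 18 (45.0%) were overlapped by an IS in the first table and 28 (70.0%) in the second. Of 1113 olfactory receptor (Olfr) genes, which are clustered and, like the protocadherins, are chosen for expression in single neurons, 10 (0.898%) and 34 (3.05%) were overlapped. The clustered protocadherins, at 8.33% in both tables, lay between these families, and the Pcdhb genes, at 0 of 21, lay at the olfactory end. The 8.33% comes from 2 long models that pool nearly all alpha and all gamma transcripts. It therefore depends on the annotation, and only the Pcdhb share is counted gene by gene. Of 12 non-clustered protocadherin genes, 6 and 10 were overlapped.

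The condition-specific IS lists differed in how many ISs they placed at the clusters. The WT list held 1, the Rif1KO list 7, the Rif1KO_shLacZ list 19 and the Rif1KO_shMcm6 list 22. As shares of each list these were 0.00387%, 0.0208%, 0.0189% and 0.0190%. The IS in the WT list was B2, about 2.3 kb upstream of Pcdhb1, the first beta gene (chr18:37421959-37422318 in the first table), and it was the only member called in all 4 lists. In the first table B2 was called in both conditions and the other 6 members in Rif1KO only, whereas over all ISs 51.7% were called in both, 34.1% in Rif1KO only and 14.2% in WT only.

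Read densities at these 6 ISs did not follow the calls. A0, 2434 bp before Pcdha11 (chr18:37086813-37087505), measured 4.48 log2 RPM in WT and 4.70 in Rif1KO, from 75 and 97 reads. A3, in an intron of Pcdha11 (chr18:37198591-37199070), measured 4.39 and 4.35 from 70 and 76 reads. A5, farther along the same intron-rich model (chr18:37207331-37207768), measured 4.54 and 4.41 from 78 and 79 reads. These 3 alpha members differed by 0.22 or less in log2 units between conditions.

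B2, called in both conditions, measured 4.39 in WT and 4.33 in Rif1KO, from 70 and 75 reads, and did not stand above the members called in Rif1KO only. G3, in an intron of Pcdhgc5 (chr18:37953716-37954095), measured 4.50 and 4.19 from 76 and 68 reads. G5 (chr18:37985418-37985932) measured 4.52 and 4.55 from 77 and 87 reads. In the gamma cluster G3 was thus the member with the lower value in Rif1KO. G6 (chr18:37989606-37989986) measured 4.36 and 4.51 from 69 and 85 reads. All 7 lay in a narrow band, from 4.36 to 4.54 in WT and from 4.19 to 4.70 in Rif1KO, around the medians of all ISs, 4.45 and 4.46. WT read counts of 69 to 78 stood beside a median of 73 over the table.

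Fold changes on loss of RIF1 were small at the members, as over all ISs, where the quartiles of the log2 fold change were -0.15 and 0.19. No member passed 1.5-fold in either direction, the threshold of the study, and 4.96% of all ISs passed it. The count of 0 of 7 thus does not set the members apart. The interval of the fold left out no change at 0 of 7 members and at 10.1% of all ISs. The highest log2 fold change was 0.22 (interval -0.23 to 0.67) at A0 and the lowest was -0.31 (-0.81 to 0.18) at G3. The median was -0.03, against 0.02 for all ISs, with 3 members above 0 and 4 below. Summed over the 7 members, 515 WT reads and 567 Rif1KO reads gave a fold of 0.990 (0.877 to 1.12). By cluster the fold of the sums was 1.02 (0.845 to 1.22) for alpha, 0.964 (0.686 to 1.35) for beta and 0.972 (0.807 to 1.17) for gamma, and all 3 intervals included 1.

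**Figure D4:**
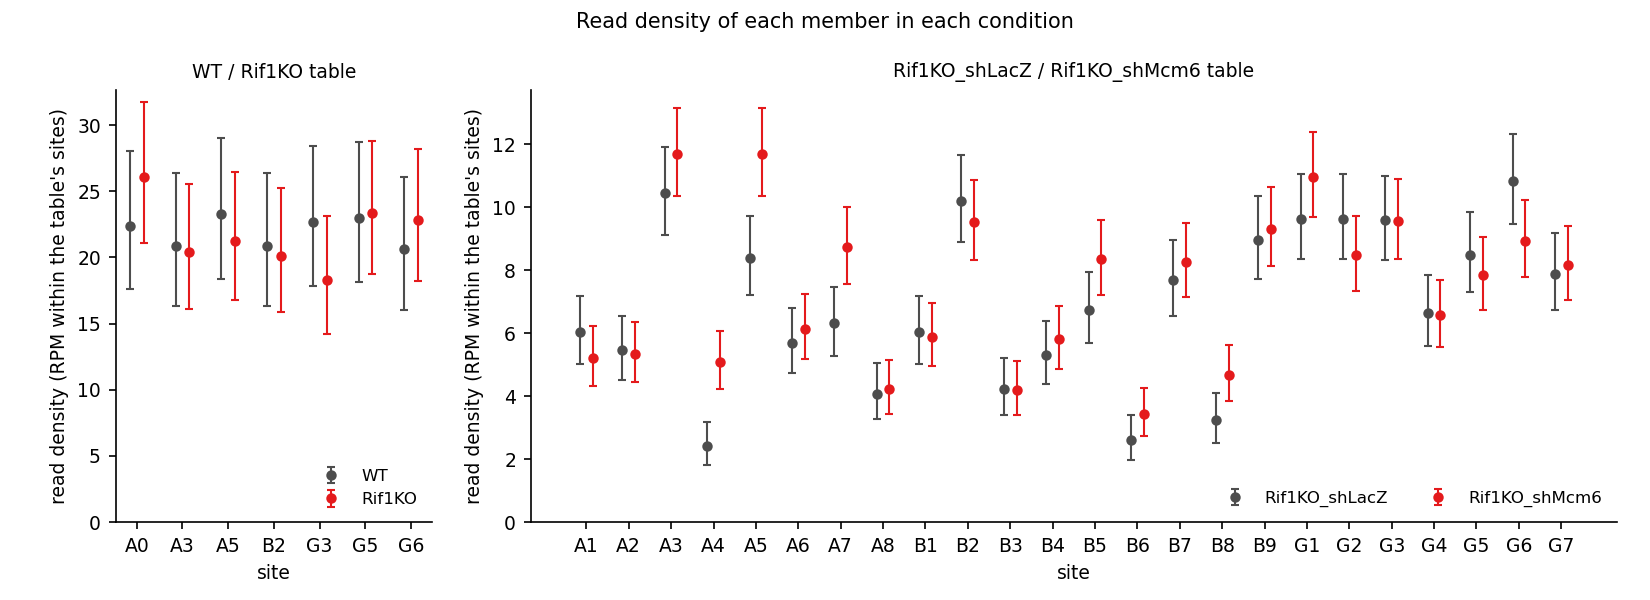
Read density (RPM within the ISs of a table, linear axis from 0) of the 7 members of the first table and the 24 of the second in each condition, with 95% Poisson intervals of counting error from pooled reads. The conditions overlap at every member at left; at right A4 is at 2.42 RPM in Rif1KO_shLacZ and 5.08 in Rif1KO_shMcm6.

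Of the 7 members, 6 overlapped a member of the deeper table. A3, A5, G5 and G6 were called in all 3 lists of Rif1-knockout cells but not in the WT list, and G3 was called in Rif1KO and Rif1KO_shLacZ. A0 was called in the Rif1KO list only. The other 18 members of the deeper table were absent from the lists of WT and Rif1KO.

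The densest alpha member of the deeper table was A3 (chr18:37198174-37199140), at 3.38 log2 RPM in Rif1KO_shLacZ and 3.55 in Rif1KO_shMcm6, from 220 and 276 reads. A5 (chr18:37207164-37207786) followed at 3.07 and 3.55 from 177 and 276 reads. A7 (chr18:37274285-37274887) measured 2.66 and 3.13 from 133 and 206 reads. All 3 were higher after Mcm6 depletion, with intervals that left out 0 for A5 (log2 fold change 0.48, 0.20 to 0.76) and A7 (0.47, 0.15 to 0.79) and included it for A3 (0.16, -0.10 to 0.43). Only 30.8% of the windows of A7 were unique, against 99.7% at A5 and 88.9% at A3.

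At the beta cluster the densest member was B2 (chr18:37421584-37422360), at 3.35 in Rif1KO_shLacZ and 3.25 in Rif1KO_shMcm6, from 215 and 225 reads. B9, 9682 bp from Pcdhb22, the last beta gene (chr18:37690755-37691500), measured 3.17 and 3.22 from 189 and 220 reads. B7, 3923 bp upstream of Pcdhb15 (chr18:37628574-37629277), measured 2.94 and 3.05 from 162 and 195 reads. Their log2 fold changes of -0.10, 0.06 and 0.10 had intervals that included 0. B5 (chr18:37444261-37445086), 9408 bp before Pcdhb2, had 142 and 197 reads and a log2 fold change of 0.31 (-0.01 to 0.63), the third highest fold change among members at least as dense as the median IS.

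At the gamma cluster G1 (chr18:37910167-37911076) measured 3.27 and 3.46 from 203 and 259 reads. G6 (chr18:37989392-37989944) measured 3.44 and 3.16 from 228 and 211 reads, and it had the lowest log2 fold change of the 24, -0.28 (-0.55 to 0.00). G3 (chr18:37953477-37954141) measured 3.26 and 3.26 from 202 and 226 reads. Their log2 fold changes, 0.19, -0.28 and -0.00, had intervals that reached or crossed 0. Among the denser members the next lowest were G2, at -0.19 (-0.47 to 0.10), and G5, at -0.12 (-0.42 to 0.19). G1 and G2 lie in introns shared with Gm16882, a non-coding gene on the opposite strand, and the densities were not split by strand.

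A4 was the only member past 1.5-fold, 1 of 24 (4.17%) where 6.31% of all ISs passed. It lay 206 bases before A5 in an intron of Pcdha11 (chr18:37206546-37206957) and had 51 reads in Rif1KO_shLacZ (1.28 log2 RPM) and 120 in Rif1KO_shMcm6 (2.35 log2 RPM), a log2 fold change of 1.07 (0.59 to 1.57). It was among the faintest ISs of its table in the control, at percentile 1.02 of the Rif1KO_shLacZ densities, and 37.9% of its windows were unique. The part of these features in the fold change was not tested.

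The interval left out no change at 4 of 24 members (16.7%), namely A4, A5, A7 and B8, all higher in Rif1KO_shMcm6, against 23.9% of all ISs in either direction. A4 and B8 were in the table through their call in Rif1KO_shMcm6 only. B8, 3903 bp after Pcdhb22 (chr18:37684976-37685404), had 68 reads in Rif1KO_shLacZ and 110 in Rif1KO_shMcm6, a log2 fold change of 0.53 (0.08 to 0.99), and is named after its value was seen. The other 20 members had intervals that included 0. The median over the 24 was 0.05, against -0.01 for all ISs, with 14 members above 0 and 10 below.

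**Figure D5:**
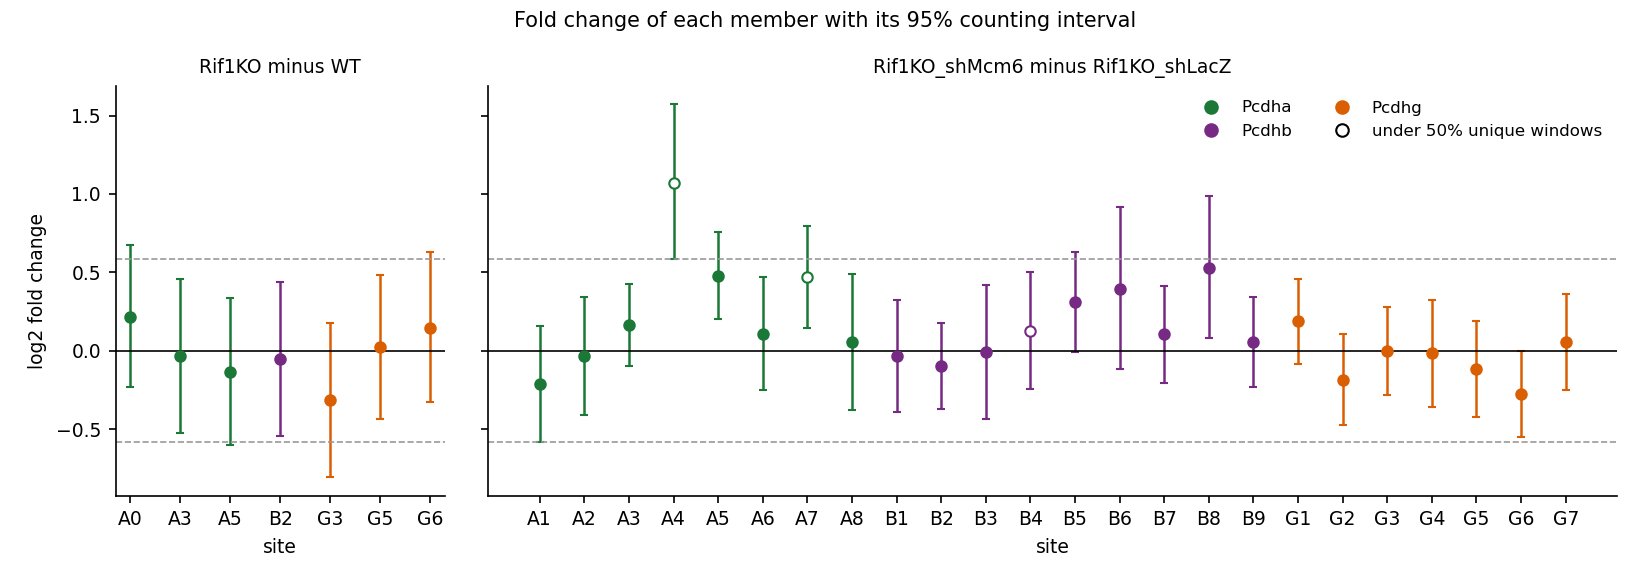
Log2 fold change of each member with its 95% counting interval for Rif1KO minus WT (left) and Rif1KO_shMcm6 minus Rif1KO_shLacZ (right), with 1.5-fold marked by dashed lines at 0.58 and -0.58; open points are ISs with under 50% unique 50-base windows. A4, at 1.07, is the only point past a dashed line, and it is an open point.

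Reads were also summed by cluster. Alpha members went from 1029 to 1372 reads, a fold of 1.19 (1.10 to 1.29). Beta members went from 1159 to 1403 reads, a fold of 1.08 (0.999 to 1.17). Gamma members went from 1321 to 1429 reads, a fold of 0.966 (0.896 to 1.04). The alpha sum was thus higher in Rif1KO_shMcm6 beyond counting error, and the beta and gamma sums were not. The alpha sum rested on A4, A5 and A7, since the other 5 alpha members had 668 and 770 reads, a fold of 1.03 (0.927 to 1.14). Without A4 and A7, the alpha members with under 50% unique windows, it was 1.11 (1.01 to 1.21). Both subsets were formed after the values were seen. The alpha minus gamma difference in log2 fold change was 0.30 (0.14 to 0.46), the beta minus gamma difference 0.16 (0.01 to 0.32) and the alpha minus beta difference 0.14 (-0.02 to 0.30). Over all 24 members 3509 and 4204 reads gave a fold of 1.07 (1.02 to 1.12). These sums hold 7 members that are in the table through a call in 1 condition only, 5 of them in Rif1KO_shMcm6. Over the 17 members called in both conditions, a choice made after seeing the data, the alpha fold was 1.14 (1.05 to 1.24), the beta fold 1.04 (0.937 to 1.15) and the gamma fold 0.956 (0.875 to 1.04). Their differences in log2 fold change were 0.26 (0.08 to 0.43) for alpha minus gamma, 0.12 (-0.07 to 0.31) for beta minus gamma and 0.14 (-0.05 to 0.33) for alpha minus beta, so the beta minus gamma interval then included 0. The fold over all 17 was 1.05 (0.993 to 1.10), which included 1. With 1 pooled value per condition, counting intervals leave out the spread between cultures, which could be wider.

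Calls in the deeper table were made in both conditions at 17 of 24 members (70.8%), against 65.8% of all ISs. In Rif1KO_shMcm6 only, 5 were called, A4 and B6 to B9, and B6 to B9 are all the members that flank the last 7 Pcdhb genes. In Rif1KO_shLacZ only, 2 were called, G3 and G4, which are neighbours 10520 bases apart. For all ISs these shares were 23.1% and 11.1%. Of the 4 beta members called in Rif1KO_shMcm6 only, B8 had an interval above 0, while B7 (0.10), B9 (0.06) and B6 (0.39, -0.12 to 0.92) did not. G3 and G4 had log2 fold changes of -0.00 and -0.02. The same filter acts on these lists, so a called state depends on neighbours as well as on an IS's own reads.

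The median GC content of the members was 40.3% in the first table and 38.7% in the second, against 46.9% and 44.4% of all ISs. The 3 gamma members of the first table had a median of 51.7%, above all ISs, and the alpha members 37.2%. By cluster, the medians of the deeper table were 36.5% for alpha, 38.7% for beta and 44.4% for gamma, and single members ran from 30.1% at B8 to 57.3% at G6. CpG dinucleotides numbered 0.289 and 0.561 per 100 bases at the median member, against 0.715 and 0.631 at the median IS. Cluster medians in the deeper table were 0.347 for alpha and 0.515 for beta, and 0.989 for gamma, which is above all ISs. A G-quadruplex motif, sought as 4 runs of at least 3 G with loops of 1 to 7 bases on either strand in a 500-base window, was found at 4 of 7 members (57.1%) and 11 of 24 (45.8%), against 74.3% and 50.7% of all ISs. By cluster, 3 of 8 alpha, 4 of 9 beta and 4 of 7 gamma members of the deeper table held it. Median widths of 438 and 578 bases were close to the 447 and 596 bases of all ISs.

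Non-clustered protocadherins, which are scattered over other chromosomes or lie apart on chromosome 18, were read in the same way. Their 57 ISs in the first table had a median log2 fold change of -0.18, with 1 IS past 1.5-fold upward and 8 downward. All 8 lay at Pcdh15, a tip-link protein of sensory hair cells, on chromosome 10, where 27 ISs had a median of -0.44. All 2699 ISs of chromosome 10 had a median of -0.36. Without chromosome 10 the median of the other 30 was -0.01, with 1 higher and 0 lower. Their 190 ISs in the deeper table had a median of 0.16 with 20 past 1.5-fold upward and 0 downward, and without chromosome 10 the median was 0.18 with 9 upward. The shares past 1.5-fold were 1.75% upward and 14.04% downward in the first table, against 2.27% and 2.70% of all ISs, and 10.5% and 0% in the second, against 4.80% and 1.51%. The clustered members had medians of -0.03 and 0.05.

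Genes for proteins that act on the clusters, CTCF, cohesin and its loaders and removers, the silencing factor SMCHD1, DNA methyltransferases and other chromatin factors, were read at their promoters from a list of 14 genes. A promoter IS, within 1 kb of a TSS, was present at 2 of 14 in the first table and at 7 of 14 in the second. Of all protein-coding TSSs 9.85% and 19.8% had an IS within 1 kb, a share per TSS and not per gene. None of the promoter ISs passed 1.5-fold, where 4.96% and 6.31% of all ISs did. In the first table Wapal, which releases cohesin, had a log2 fold change of 0.07 and the DNA methyltransferase gene Dnmt3a -0.07. In the deeper table the cohesin genes Smc1a (-0.46, -0.85 to -0.07) and Stag2 (-0.46, -0.79 to -0.13) and the maintenance methyltransferase gene Dnmt1 (-0.36, -0.70 to -0.02) had intervals below 0. These were 3 of 7 promoter ISs, with 0 of 7 above 0. Of all ISs, 23.9% had an interval that left out no change in either direction. The share for promoter ISs in general is not given here. Smc1a and Stag2 are X-linked, and the median log2 fold change of all ISs on the X chromosome was -0.04. The cohesin genes Rad21 (0.00) and Stag1 (0.15), the loader gene Nipbl (-0.11) and Dnmt3a (-0.17) had intervals that included 0. The median of the 7 was -0.17.

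At the edge of the rule, the member farthest from a gene was 2434 bp away (A0) in the first table and 9722 bp away (B4) in the second. The nearest ISs left out lay 10762 bp and 10543 bp from Pcdhb1, at log2 fold changes of -0.03 and -0.12, and belong to the run of ISs between the alpha and beta clusters.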

How the data were processed

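SNS-seq libraries were single-end, with reads of 50 bases. Per the methods and the submitters' processing notes, the authors trimmed reads (Trim Galore 0.6.4, cutadapt 2.6), kept uniquely aligned reads on mm9 (Bowtie 1.2.3), called peaks per replicate without an input library (MACS), made consensus peaks per condition (bedtools), retained peaks inside clusters of peaks (ClusterScan) and merged the conditions of each contrast. Repeated sequence is therefore covered less, and densities without an input still carry DNA copy number.

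The deposited merged tables hold log2 RPM, 1 pooled value per condition, scaled by the authors to the reads inside the ISs of a table. How replicates were pooled is not given in the sources used here. The deposited lists give ISs per condition. The deposited fold change categories of the authors were not used. Divided by the worth of 1 read, the linear values of all ISs were whole (tolerance 0.01 reads), which gave back the pooled reads. The merged tables hold no column for a single sample.

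Log2 fold changes are treated minus control values. Intervals are 95%, exact binomial (Clopper-Pearson) for ratios and exact Poisson for counts, and a normal interval on the log scale for differences between clusters. PCR copies are not independent, so all cover counting error only. Gene models were GENCODE M1 on NCBIM37 (mm9), and every IS fell inside its chromosome. Uniqueness was the share of 50-base windows found once on either strand of the genome. Scripts used Python 3.11.15, numpy 2.4.6, pandas 2.3.3, scipy 1.17.1 and numba 0.67.0 and were tested on simulated data. Alternatives covered the distance of the rule, the threshold, a pseudocount, a filter on low densities, centring and the overlap of lists. Named ISs were the 3 densest per cluster and table, the 3 highest and 3 lowest fold changes among ISs at or above the median density, those past 1.5-fold, those in all 4 lists and those over constant exons. Others, and the stretches between clusters, were named after their values were seen. Members and lists were chosen with earlier results of these data known. No DNA sequence of the locus is reported here.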

Additional observations from a re-analysis of the deposited data

How the results depend on the processing

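Of 36 alternatives over 11 results, 33 stayed within the main value's limits, 3 moved and 0 reversed. Some of the 33 could not move. With 0 members past 1.5-fold in the first table, a 2-fold threshold or a pseudocount must also give 0. Its 7 members all lay within 5 kb, so that rule must keep them. The limits were wide, since 19 members at 5 kb and 30 at 20 kb in the deeper table, beside 24, fell within them. Restricting the rule to ISs that overlap a gene (0 kb) left 15 members in the deeper table, which follows from the beta members lying outside genes. At a lower threshold, 25% higher or the inverse ratio, the share of members changed on Mcm6 depletion was 20.8% in place of 4.17%, against 25.6% of all ISs. With ISs below the lower quartile of density left out, it was 0%, because A4 falls below it. Leaving out A4 gave a log2 ratio of summed reads of 0.08 in place of 0.10, and members called in both conditions gave 0.07, whose interval included 0. Both were chosen after seeing the data. No paired analysis was possible because each condition has 1 pooled value and no column carries a replicate. For the same reason no replicate could be left out. Depth sets the width of the intervals, with 68 to 97 reads per member and condition in the first table and 51 to 276 in the second.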

Other observations

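Genes that are no protocadherin also lie in or beside the locus. Of those within 100 kb, Slc25a2, a mitochondrial carrier gene between the beta and gamma clusters, had an IS 961 bp from its TSS in the deeper table and 9039 bp away in the first. Taf7, a gene for a subunit of the general transcription factor TFIID that lies beside it, had its nearest IS 5750 bp away in the deeper table and 13828 bp away in the first. Gm10545, a gene model inside the alpha cluster, had A1 at 1782 bp from its TSS in the deeper table and no IS nearer than 18258 bp in the first. At Diap1, an actin-nucleating formin gene that follows the gamma cluster, an IS of the first table overlapped the TSS of an internal transcript, which lay 18631 bp from an IS of the deeper table.

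ISs in the stretches between the clusters include the members B1, B2, B8 and B9. In the deeper table the 12 ISs between alpha and beta had a median log2 fold change of 0.08, with 1 past 1.5-fold upward and 0 downward, and the 13 between beta and gamma a median of -0.05, with 0 past it in either direction. Over all ISs of that table, 4.80% passed 1.5-fold upward and 1.51% downward.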
